A study of Mus musculus with 36 samples.

Results

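The comparison concerned the left ventricle of CUG960 +dox mice that had received an AAV9 vector for MBNL1 or an AAV9 vector for MBNL2, and asked how far the RNA profiles of the 2 treated cohorts differed from each other. The MBNL1 cohort is represented by 3 ventricular libraries and the MBNL2 cohort by 3, so that 6 of the 36 libraries of the series were compared. The other libraries are from ventricle and atria of the +dox, +/-dox, -dox and MBNL1+MBNL2 cohorts and from the atria of the MBNL1 and MBNL2 cohorts, with 3 animals per cohort and tissue. They served here to estimate the spread between libraries and to place the differences.

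All mice carried the genotype TREDT960I (Hom)/MHCrtTA (Hem). The first transgene holds interrupted CTG repeats within part of the human DMPK gene behind a tetracycline-responsive promoter, and the second expresses the reverse tetracycline transactivator from the alpha-myosin heavy chain promoter, so that the repeat RNA is made in cardiomyocytes when doxycycline is fed. The MBNL1 and MBNL2 cohorts had doxycycline from postnatal day 1, were injected through the tail vein at 9 weeks of age and stayed on doxycycline until collection at 21 weeks of age, which is 12 weeks after the injection. The vectors encoded human 3XFLAG-MBNL1 or 3XMYC-MBNL2 behind the heart-specific human TNNT2 promoter. The +dox cohort had doxycycline over the same time and no vector, the +/-dox cohort was taken off doxycycline at 9 weeks of age, and the -dox cohort had none. A cohort given a control vector was not analysed here.

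Muscleblind-like proteins are RNA-binding proteins that regulate alternative splicing, RNA stability and localization in muscle, heart and brain. MBNL1 and MBNL2 are paralogs with closely related zinc-finger RNA-binding domains and recognize similar sequence motifs. In myotonic dystrophy type 1 the expanded CUG repeats of DMPK transcripts bind these proteins in nuclear foci, which lowers the amount available for their normal targets, and supplying MBNL protein from a vector is one way to offset that loss.

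The expected counts summed to between 69.0 and 76.3 M in the 6 libraries, and the 12 ventricular marker genes summed to between 23566 and 26629 TPM. MBNL1 replicate 1 stood apart. It listed 16885 genes above 0 although its total was the highest of the 6, whereas the other 5 libraries listed 22581 to 23192. Of the tested genes, 2350 were at 0 in this library and above 0 in the other 5, against 20 to 39 such genes for each of the other libraries, and their median level in the other 5 was 0.140 CPM (counts scaled to library size, with TMM normalization). The main results are therefore given with and without it. In both cohorts replicates 1 and 2 were male by Xist and Ddx3y and came from a lower series of library numbers, and replicate 3 was female and came from a higher series, so that sex and series of library numbers cannot be told apart but are balanced between the cohorts. The labels call the libraries of a cohort biological replicates. The main p-values use a spread within groups estimated over all 36 libraries, not over the 6 compared libraries alone. That fit takes ventricular and atrial libraries as independent, although the study took both tissues from the same mice.

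The atrial markers were not at 0 in the ventricular libraries and differed between them. The 15 atrial markers summed to 555, 674 and 759 TPM in the MBNL1 libraries and to 1430, 706 and 1240 TPM in the MBNL2 libraries. The share of counts from the mitochondrial genome ran from 14.4% to 16.9% and was above 16.7% in MBNL1 replicates 1 and 2. The part of either value in the differences described next was not tested. In bulk RNA, fewer cells of a type and less RNA per cell cannot be told apart.

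Few genes separated the ventricles of the 2 cohorts: 3 of 19231 genes tested (0.0156%) were called different by the rule of an adjusted p under 0.05 with a change of 1.5-fold or more. All 3 were higher in the MBNL1 cohort: Cdnf, which encodes a neurotrophic factor resident in the endoplasmic reticulum, Kbtbd12, which encodes a kelch-repeat protein with a BTB domain, and Adh6b, of the alcohol dehydrogenase family. None was called lower in this fit. The count depended on the libraries fitted. With edgeR it was 0 with only the 18 ventricular or only the 6 compared libraries (1155 and 694 genes at an unadjusted p below 0.05). It was 9 (6 of them lower) with a term for the series of library numbers and 53 (37 lower) without MBNL1 replicate 3. The last fit keeps MBNL1 replicate 1, the library with few genes above 0. It holds no female MBNL1 library, so sex and series of library numbers are not balanced in it. At an unadjusted p below 0.05 there were 2004 genes (10.4%), of which 925 (4.81%) were higher and 1079 (5.61%) lower in the MBNL1 cohort. The 3 libraries of a cohort lay entirely above those of the other for 2144 genes (11.1%), with the MBNL1 libraries higher for 1030 (5.36%) and lower for 1114 (5.79%). Without MBNL1 replicate 1, 19716 genes could be tested, 776 (3.94%) passed the unadjusted threshold and Cdnf was the only gene called.

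**Figure D1:**
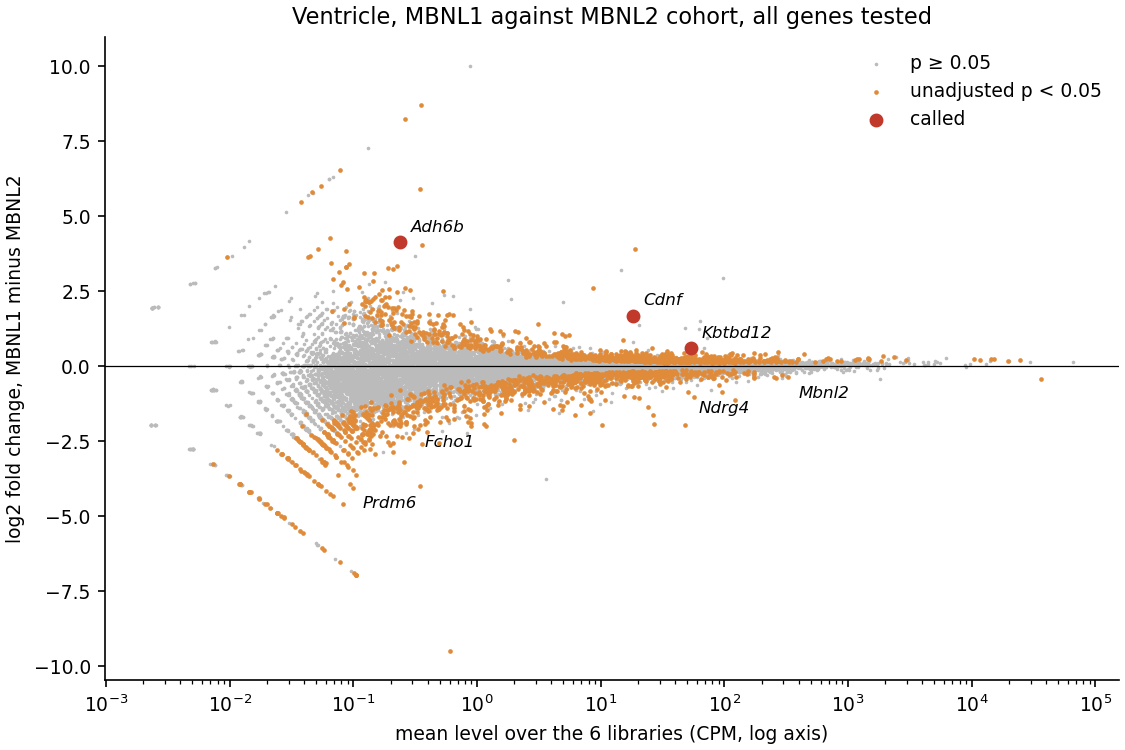
Log2 fold change of the MBNL1 cohort minus the MBNL2 cohort in the ventricle (vertical axis) against the mean level of the 6 libraries in CPM (horizontal log axis), 1 point per gene tested. Red points are the 3 called genes, all above 0, orange points are the other genes with an unadjusted p below 0.05, and grey points are the rest.

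The balance of higher and lower genes depended on their level. Of the 8536 genes with a mean of at least 10 CPM, 56.2% were higher in the MBNL1 cohort, with a median log2 fold change of 0.02. Of the 6209 genes under 1 CPM, 36.03% were higher, with a median of -0.28. Among all genes tested 46.3% were higher and 53.5% lower, and the median was -0.02. Among genes under 1 CPM, 466 passed the unadjusted threshold as lower in the MBNL1 cohort and 204 as higher, whereas from 10 CPM up 279 were lower and 534 higher. Of the 2350 genes at 0 only in MBNL1 replicate 1, 225 passed the unadjusted threshold as lower in the MBNL1 cohort. Without this library 50.1% of all genes tested were higher.

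Cdnf (ENSMUSG00000039496.8, chr2:3513030-3526376 on the plus strand of GRCm38) had the largest difference relative to its spread. Its level was 37.2, 25.01 and 21.5 CPM in MBNL1 replicates 1 to 3 and 11.5, 7.28 and 7.20 CPM in MBNL2 replicates 1 to 3. All MBNL1 libraries lay above all MBNL2 libraries, within the male pairs as well as between the female libraries. The log2 fold change was 1.69 (SE 0.218, n = 3 and 3, edgeR quasi-likelihood adjusted p = 0.000505, with the spread estimated from all 36 libraries), a 3.22-fold higher level in the MBNL1 cohort. With the same size of difference, the edgeR adjusted p was 0.199 when only the 18 ventricular libraries were fitted and 0.536 when only the 6 were, and the gene was then not called. It was 1.42 (SE 0.217, edgeR adjusted p = 0.0111) without MBNL1 replicate 1.

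The other cohorts place these levels of Cdnf. The +dox libraries had 2.76, 2.51 and 2.99 CPM and the -dox libraries 39.1, 37.0 and 30.6 CPM. The +/-dox libraries had 36.5, 37.4 and 32.4 CPM. On the log2 scale the MBNL1 cohort stood 3.34 above +dox, which is 90.5% of the -dox difference of 3.69, and the MBNL2 cohort stood 1.66 above +dox, or 44.9% of it. Both values use the same +dox libraries. The MBNL1+MBNL2 libraries had 43.4, 23.4 and 24.3 CPM, a log2 difference of 1.81 from the MBNL2 cohort (SE 0.219, edgeR adjusted p = 0.000141) and of 0.12 from the MBNL1 cohort. The MBNL2 libraries were thus the lowest of the cohorts other than +dox. The study's text, citing RT-qPCR, reports Cdnf back at -dox levels with MBNL1 or with both vectors. The fold changes in its supplement, as labelled, instead put MBNL2 near MBNL1 and the MBNL1+MBNL2 cohort lowest. The order of cohorts by label thus differs from the order here, and the reason was not tested.

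Kbtbd12 (ENSMUSG00000033182.12, chr6:88545114-88637950 on the minus strand) had 73.1, 65.3 and 57.5 CPM in the MBNL1 libraries and 48.7, 40.6 and 40.03 CPM in the MBNL2 libraries. The groups did not overlap, and the log2 fold change was 0.60 (SE 0.111, edgeR adjusted p = 0.0467), a 1.51-fold difference close to both thresholds. It was 0.51 without MBNL1 replicate 1, with an edgeR adjusted p of 0.596. The +dox libraries had 37.6, 35.3 and 40.1 CPM and the -dox libraries 107, 104 and 93.8 CPM. The MBNL1 cohort was above +dox by 0.79 on the log2 scale (edgeR adjusted p = 4.12e-05), whereas the MBNL2 cohort was above it by 0.19 (edgeR adjusted p = 0.313), in both cases against the same +dox libraries. The MBNL1+MBNL2 libraries, at 91.0, 63.7 and 60.0 CPM, were above the MBNL2 cohort by 0.73 (edgeR adjusted p = 0.0024).

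Adh6b (ENSMUSG00000074206.7, chr3:138341775-138358861 on the plus strand, overlapping Gm23467 on the same strand) was near the detection limit. Its counts were 67, 12 and 14 in the MBNL1 libraries and 1, 2 and 2 in the MBNL2 libraries, so 1 library held most of the counts of its cohort. The ratio of summed counts, scaled to library size, was 18.8 (95% exact interval 7.78 to 59.3, counting error only), and 7.97 (3.01 to 26.6) without MBNL1 replicate 1. The fitted log2 fold change was 4.13 (SE 0.678, edgeR adjusted p = 0.0113), and 2.91 without that library, where the adjusted p was 0.311. The +dox, -dox and MBNL1+MBNL2 libraries ran from 0.034 to 0.17 CPM, which is above the MBNL2 libraries. Reads shared between members of the alcohol dehydrogenase family are divided by RSEM, which adds uncertainty to its counts.

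**Figure D2:**
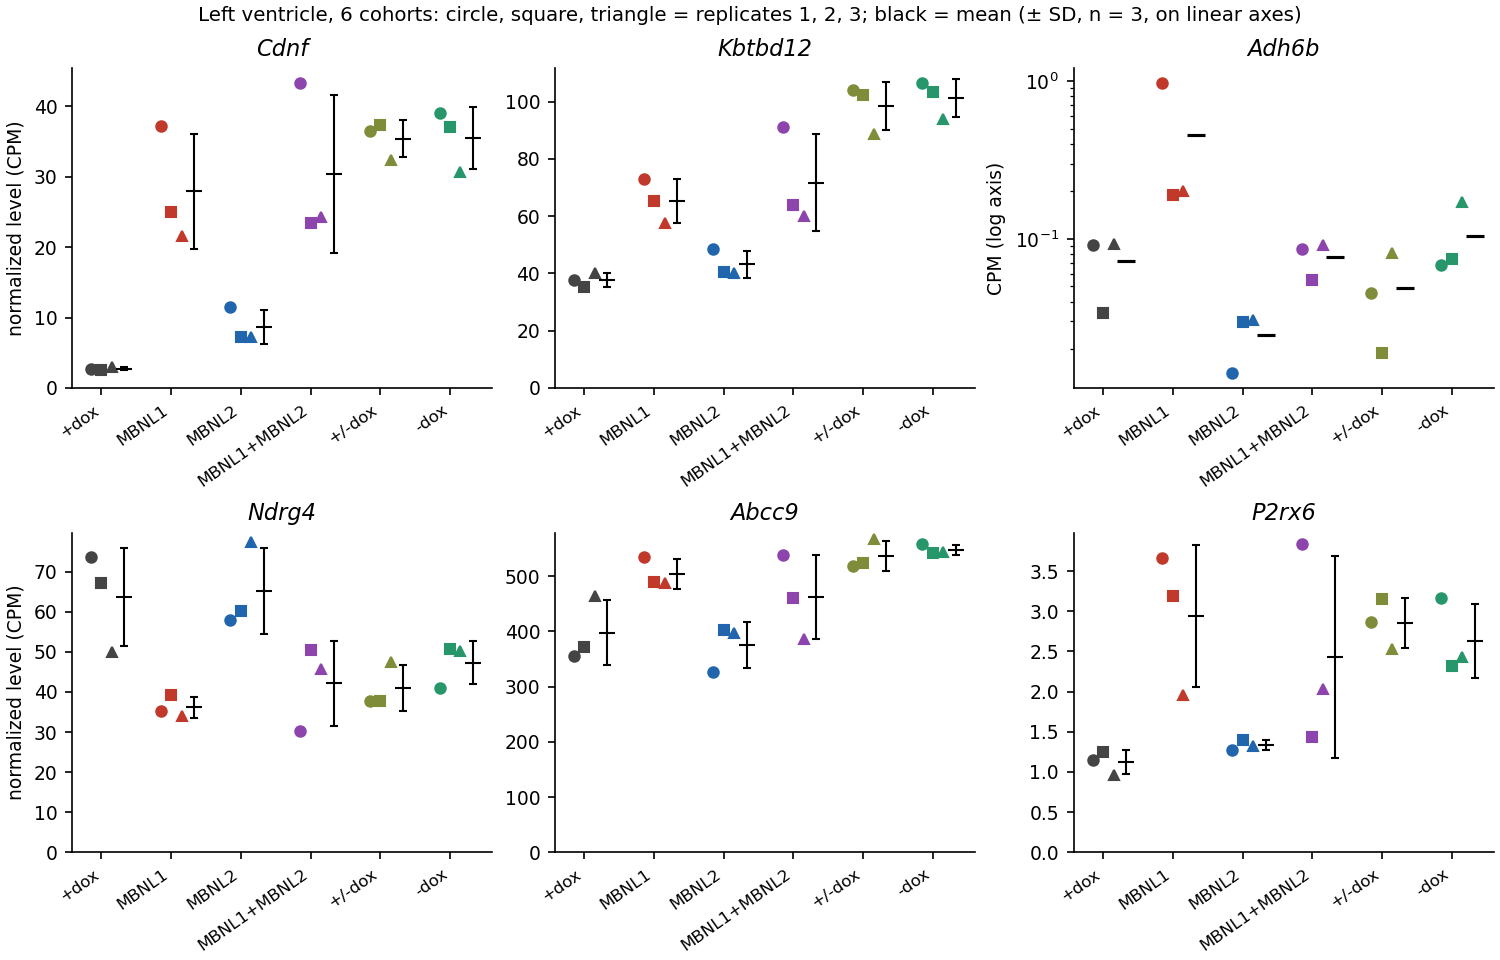
Levels of 6 genes in the 18 ventricular libraries in CPM by cohort, with replicates 1 to 3 as circle, square and triangle and black marks for the mean ± SD (n = 3; mean only on the log axis of Adh6b). Cdnf, Kbtbd12 and Adh6b are the called genes, and Ndrg4, Abcc9 and P2rx6 are genes whose groups also did not overlap but which were not called.

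Mouse Mbnl1 and Mbnl2 were read as far as reads of the human cDNAs may have been assigned to them, since the vectors' own sequences are not among the gene symbols. Mbnl1 (ENSMUSG00000027763.13, chr3:60472830-60629750) had 282, 230 and 227 CPM in the MBNL1 libraries and 188, 178 and 187 CPM in the MBNL2 libraries. The groups did not overlap, and the log2 fold change was 0.42 (95% interval 0.25 to 0.59, edgeR adjusted p = 0.11). The +dox libraries, which had no vector, had 218, 207 and 224 CPM, between the 2 cohorts. Per length, Mbnl1 was at 62.1 ± 5.87 TPM with the MBNL1 vector and at 47.0 ± 2.40 TPM with the MBNL2 vector (SD, n = 3 each), a ratio of 1.32.

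Mbnl2 (ENSMUSG00000022139.17, chr14:120275669-120431697) had 334, 251 and 283 CPM in the MBNL1 libraries and 408, 327 and 371 CPM in the MBNL2 libraries. By counts the groups overlapped, with a log2 fold change of -0.35 (SE 0.091, edgeR adjusted p = 0.224), and the +dox libraries at 358, 352 and 375 CPM lay at the level of the MBNL2 cohort. Per length the groups were apart, at 91.6 ± 6.75 TPM with the MBNL1 vector and 151 ± 23.5 TPM with the MBNL2 vector (SD, n = 3 each), 1.65 times the level. With limma on log2(TPM + 1) the difference was -0.71 and the gene was called (adjusted p = 0.000193). For the TPM of each of these genes the exact two-sided permutation p was 0.1, the smallest that 3 against 3 libraries allow. The TPM fit differed from the count fit in both unit and test. Dmpk, the mouse counterpart of the gene with the repeat, had 535, 624 and 609 CPM against 573, 632 and 609 CPM, with a log2 fold change of -0.04 that was 0.03 without MBNL1 replicate 1, and Mbnl3 was under 1 CPM in all 6 libraries.

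**Figure D3:**
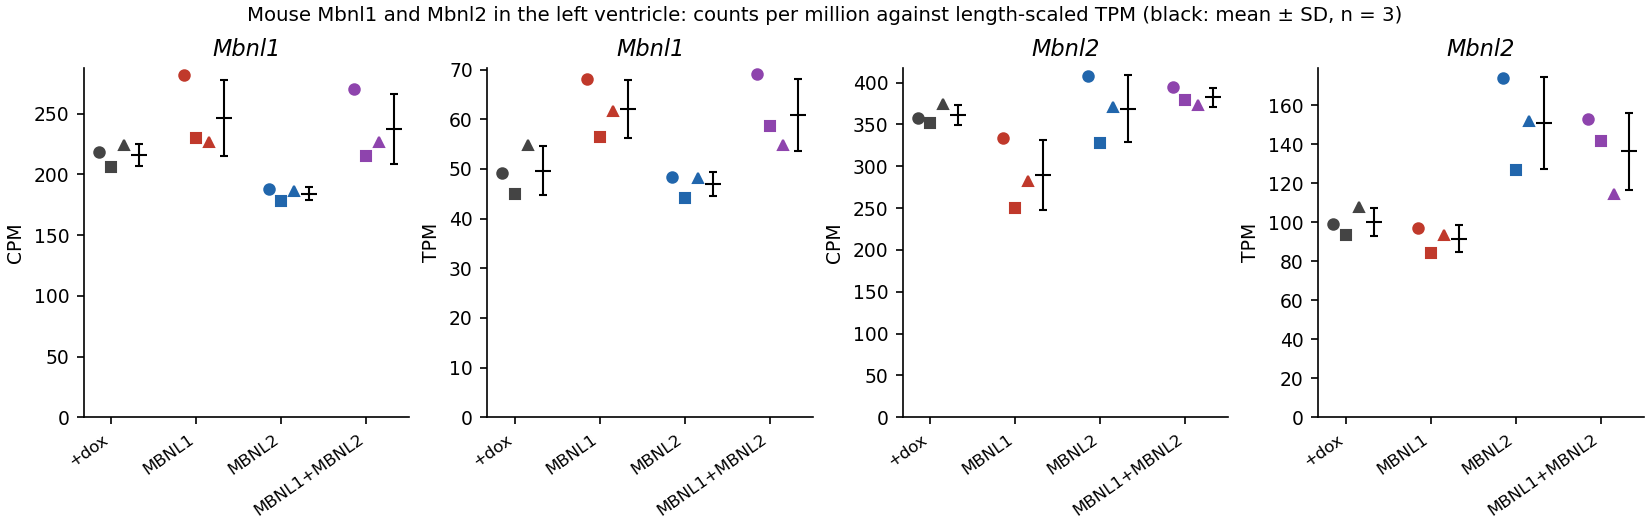
Mouse Mbnl1 and Mbnl2 in the +dox, MBNL1, MBNL2 and MBNL1+MBNL2 ventricles, as CPM and as length-scaled TPM, with 1 point per library and black marks for the mean ± SD (n = 3). Mbnl2 overlaps between the MBNL1 and MBNL2 libraries in CPM, at 251 to 334 and 327 to 408, and not in TPM.

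Below the 3 called genes, the genes with the smallest p-values among those higher in the MBNL1 cohort included Abcc9, P2rx6, Sumo3, Fads6 and Ccdc96, none of which passed the adjusted threshold. Abcc9, which encodes the SUR2 subunit of ATP-sensitive potassium channels, had 535, 490 and 488 CPM against 327, 403 and 397 CPM, with a log2 fold change of 0.42 (edgeR adjusted p = 0.144). Its -dox libraries had 542 to 558 CPM and its +dox libraries 356 to 465 CPM. P2rx6, an ATP-gated ion channel subunit, had 3.67, 3.19 and 1.95 CPM against 1.27, 1.40 and 1.32 CPM, a difference of 1.14 (edgeR adjusted p = 0.115), and the +dox libraries were at 0.97 to 1.25 CPM. Sumo3, a ubiquitin-like modifier, differed by 0.30, from 52.6 to 57.0 CPM against 43.6 to 46.5 CPM. The pseudogene 1810014B01Rik, with a difference of 0.65, overlaps Hsp90b1 on the other strand.

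Among the genes lower in the MBNL1 cohort, Ndrg4 had the highest level of those with the smallest p-values. Ndrg4, of the N-myc downstream-regulated family, had 35.2, 39.1 and 34.0 CPM in the MBNL1 libraries and 57.9, 60.3 and 77.4 CPM in the MBNL2 libraries. The log2 fold change was -0.85 (SE 0.172, edgeR adjusted p = 0.106), and -0.83 without MBNL1 replicate 1 (edgeR adjusted p = 0.701). Ndrg4 was called lower in 4 of 19 alternatives, with DESeq2 (adjusted p = 0.00588), with limma on log2(TPM + 1) and log2(TPM + 0.1) and with the term for the series of library numbers. The +dox libraries, at 73.6, 67.2 and 49.97 CPM, overlapped with the MBNL2 cohort, and the -dox libraries had 41.1 to 50.7 CPM. Fcho1, which encodes a protein of clathrin-coated pits, had counts of 1, 8 and 16 against 32, 31 and 39, a ratio of summed counts of 4.03 in favour of the MBNL2 cohort (95% exact interval 2.58 to 6.52, counting error only). The MBNL1 counts of Fcho1 differed widely between libraries, and without replicate 1 the ratio was 2.77 (1.76 to 4.53). Cbln1 had counts of 3, 5 and 3 against 29, 20 and 21, and Prdm6 had 1, 0 and 1 against 24, 4 and 11. The uncharacterized gene Gm31659 had nearly equal levels of 0.93 to 0.95 CPM in the MBNL1 libraries and 1.57 to 2.38 CPM in the MBNL2 libraries (log2 fold change -1.04, edgeR adjusted p = 0.0958). Fcho1 and Gm31659 were among the 37 genes called lower without MBNL1 replicate 3, and P2rx6 was among the 16 called higher. That fit keeps MBNL1 replicate 1 and is not balanced for sex and series of library numbers.

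The genes called between the -dox and the +dox ventricles, here named repeat-responsive, were then followed. Between the -dox and the +dox ventricles, 1461 genes (7.6%) were called, 667 higher and 794 lower in -dox, a contrast that does not include the 6 libraries compared, although they entered the filter and the shared estimate of the spread. Against +dox, 511 genes (2.66%) were called in the MBNL1 and 292 (1.52%) in the MBNL2 cohort, 2 counts that share the +dox libraries and do not test the difference between the cohorts. For 921 of the 1461 genes (63.0%) the MBNL1 cohort differed from the MBNL2 cohort in the direction of -dox. This share uses the sign of the log2 fold change only and not the distance to -dox, which some genes passed. Of the genes higher in -dox, 55.02% were higher in the MBNL1 than in the MBNL2 cohort, against 46.3% of all genes tested. Of the genes lower in -dox, 69.8% were lower in the MBNL1 cohort, against 53.5% of all genes tested. The sizes were small: the median log2 difference in the direction of -dox was 0.08, with quartiles of -0.10 and 0.29. Genes are not independent replicates, so these shares are descriptions. For part of the set the +dox libraries differed widely. Among the genes lower in -dox are 13 of 18 interferon-induced GTPases and 13 of 22 antigen presentation genes. The GTPases summed to 70.8 to 3478 TPM in +dox and 64.3 to 112 TPM in -dox. The antigen presentation genes summed to 709 to 3467 TPM in +dox and 451 to 636 TPM in -dox.

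Of the same 1461 genes, 160 passed the unadjusted threshold in the direction of -dox and 44 away from it, together 14.0% against 10.4% of all genes tested. The groups did not overlap for 169 and 54, together 15.3% against 11.1%. Of the 3 called genes 2, Cdnf and Kbtbd12, are in this set. The shares without MBNL1 replicate 1 were 63.6% of the genes higher in -dox, against 50.1% of all genes tested, and 65.7% of those lower in -dox, against 49.6%. From 10 CPM up, they were 65.5% against 56.2% and 70.1% against 43.8% with all 6 libraries, and 75.9% against 56.7% and 64.8% against 43.3% without MBNL1 replicate 1. In the atria of the same cohorts, 64.5% of the genes higher in -dox ventricle were higher in the MBNL1 cohort, against 50.8% of all genes tested, and 68.6% of those lower in -dox ventricle were lower, against 49.1%.

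Each library can be placed between +dox, set to 0%, and -dox, set to 100%, by the median of its position over the 1461 genes on the log2 scale. The MBNL1 libraries were at 51.8%, 52.3% and 46.4% and the MBNL2 libraries at 45.8%, 36.1% and 37.9%. The lowest MBNL1 library thus lay just above the highest MBNL2 library. For the genes lower in -dox, MBNL1 replicate 1 was at 63.8%, whereas the other 5 libraries ran from 31.5% to 49.9%. For the genes higher in -dox it was at 39.9%, the lowest of the 6. The groups overlapped in both directions, since MBNL1 replicate 3 was at 45.4% and MBNL2 replicate 1 at 45.9% for the genes lower in -dox. The +/-dox libraries, from mice whose doxycycline was withdrawn, were at 86.4%, 88.1% and 78.2%, above every library of the 2 cohorts, and the MBNL1+MBNL2 libraries ranged from 42.9% to 73.2%.

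**Figure D4:**
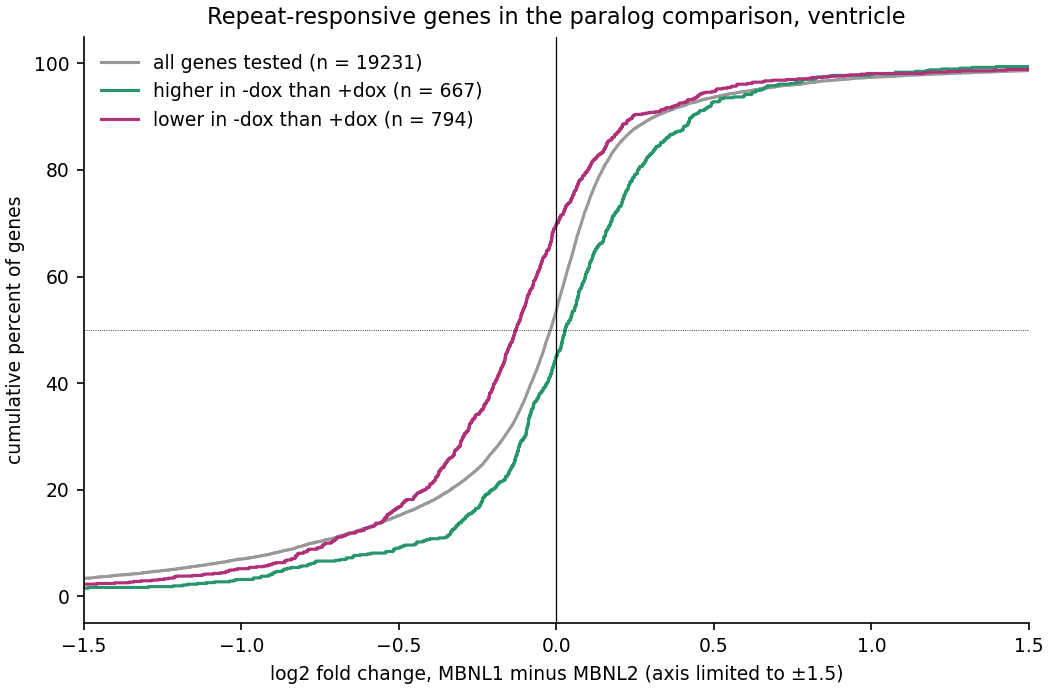
Cumulative percent of genes (vertical axis) by log2 fold change of the MBNL1 minus the MBNL2 cohort in the ventricle (horizontal axis, limited to ±1.5), for all 19231 genes tested, the 667 genes higher in -dox than in +dox and the 794 genes lower in -dox. The curve of the genes lower in -dox lies to the left of that of all genes around 0, and the curve of the genes higher in -dox to the right, with medians of -0.13 and 0.03.

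Further genes of this set with small p-values, none called, were low or moderate in level. Lta4h, which encodes leukotriene A4 hydrolase, had 17.97, 18.3 and 19.8 CPM against 15.8, 14.2 and 13.2 CPM, between 9.76 to 10.01 CPM in +dox and 22.4 to 23.2 CPM in -dox. Taf1a, a subunit of the RNA polymerase I initiation factor, had 7.41, 6.45 and 5.07 CPM against 4.86, 3.99 and 4.35 CPM, with 2.38 to 2.79 CPM in +dox and 7.97 to 9.34 CPM in -dox. Both genes lay nearer to -dox in the MBNL1 cohort and in all 3 of its libraries. Tmem183a, which is lower in -dox (13.2 to 14.6 CPM) than in +dox (23.1 to 27.0 CPM), had 14.2, 17.6 and 17.8 CPM in the MBNL1 libraries and 21.1 to 21.6 CPM in the MBNL2 libraries. Csrp2, which encodes a LIM domain protein, had 7.83 to 8.82 CPM against 8.94 to 16.2 CPM. Rxfp1, the relaxin receptor, went the other way: its -dox libraries had 1.10 to 1.45 CPM, its MBNL1 libraries 0.029, 0.43 and 0.14 CPM and its MBNL2 libraries 0.73, 0.40 and 0.78 CPM. Relative to +dox its MBNL1 cohort stood at -48.4% of the -dox difference on the log2 scale, and its MBNL2 cohort at 45.3%. Gm31659, also of this set and higher in -dox, went the other way too, at -125% and 30.6%.

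None of the other genes that the study followed for their expression was called. Ryr2, the calcium release channel of the sarcoplasmic reticulum, had 1566, 1428 and 1448 CPM against 1480, 1430 and 1338 CPM (log2 fold change 0.06, 95% interval -0.07 to 0.20), and Asph, whose locus also makes junctin, had 371 to 393 CPM against 365 to 375 CPM (0.05, -0.12 to 0.22). For both, the interval excluded a 1.5-fold difference. Ckmt2, the mitochondrial creatine kinase of striated muscle, had 1343, 1413 and 1247 CPM against 1154, 1126 and 1090 CPM, groups that did not overlap, with a log2 fold change of 0.25 (95% interval 0.03 to 0.47, edgeR adjusted p = 0.448). Kcna4, the channel of a slow transient outward potassium current, had 2.55, 3.32 and 2.95 CPM against 3.32, 4.26 and 4.49 CPM (-0.45, -0.79 to -0.11, edgeR adjusted p = 0.363). In +dox Kcna4 was at 7.46 to 9.71 CPM and in -dox at 1.12 to 2.24 CPM, and the MBNL1+MBNL2 cohort was below the MBNL2 cohort by -0.91 on the log2 scale (edgeR adjusted p = 0.0349). The pacemaker channel Hcn4 (16.5 to 21.2 CPM against 19.4 to 44.6 CPM) and the connexin Gja5 (4.06 to 5.03 CPM against 4.77 to 6.96 CPM) overlapped between the cohorts.

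Lists of cardiac genes were read by counts and medians beside those of all genes, of which 10.4% passed the unadjusted threshold. Without MBNL1 replicate 1, 3.94% of all genes passed, and counts given without that library stand beside this share. No list member other than Cdnf was called. Of 30 potassium channel genes, 18 were higher and 12 lower in the MBNL1 cohort, with a median log2 fold change of 0.04, and 4 passed the unadjusted threshold, 3 of them higher (2 without MBNL1 replicate 1). Kcnv2, a silent subunit that modifies other potassium channels, had 20.9, 19.9 and 17.7 CPM against 10.5, 11.6 and 9.76 CPM, a difference of 0.88 (SE 0.246, edgeR adjusted p = 0.247), with 3.24 to 7.23 CPM in +dox and 27.8 to 37.4 CPM in -dox. Kcnip2, the auxiliary subunit of the fast transient outward current, had 43.7 to 47.3 CPM against 33.3 to 38.3 CPM, both cohorts well below the 80.2 to 99.2 CPM of -dox. The 27 other channel and connexin genes were 12 higher and 15 lower, and the 33 calcium handling genes 16 higher and 17 lower. Camk2b, the beta subunit of a calcium-dependent kinase, had 24.0, 30.5 and 23.7 CPM against 35.6, 41.2 and 35.6 CPM (log2 fold change -0.53, edgeR adjusted p = 0.294), with the +dox and -dox libraries at the level of the MBNL1 cohort.

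The 45 sarcomere genes were 25 higher and 20 lower, with a median of 0.03. The hypertrophy and fetal gene list had 17 of 22 members lower in the MBNL1 cohort, with a median of -0.16, and 5 passed the unadjusted threshold (2 without MBNL1 replicate 1). Its one such higher member was Corin, the protease that activates natriuretic peptides, with 155, 111 and 134 CPM against 100.4, 89.4 and 103 CPM. Rcan1, a calcineurin target, had 70.6, 75.9 and 67.6 CPM against 165, 79.0 and 84.8 CPM, with MBNL2 replicate 1 far above the rest. Of the 18 other splicing regulators of muscle, 7 were higher and 11 lower, with a median of -0.04, and 1 passed the unadjusted threshold.

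All 13 genes encoded by the mitochondrial genome were higher in the MBNL1 cohort, with a median of 0.21, and 7 passed the unadjusted threshold. Their summed level was 311886, 302260 and 264107 TPM against 271376, 279131 and 267095 TPM, so that MBNL1 replicate 3 lay below all MBNL2 libraries. Without MBNL1 replicate 1, all 13 were still higher, with a median of 0.17, and 3 passed (23.1%, against 3.94% of all genes). Of 37 genes of fatty acid uptake and oxidation 32 were higher, with a median of 0.11, and 2 passed the unadjusted threshold. Lpl, the lipase that releases fatty acids from lipoproteins, had 3526, 3118 and 2897 CPM against 2707, 2859 and 2596 CPM. Of 54 nuclear-encoded respiratory chain genes 39 were higher, with a median of 0.07, and 1 passed. Their summed level overlapped and did not go the same way, at 43520, 46093 and 47305 TPM against 45991, 47038 and 48618 TPM. Of 20 heat shock genes 13 were higher and 5 passed, all of them higher, among them Cryab (1529 to 1670 CPM against 1275 to 1399 CPM) and Hsp90ab1 (1582 to 1656 CPM against 1309 to 1401 CPM). Without MBNL1 replicate 1, 2 of the heat shock genes and none of the fatty acid genes passed. The summed levels of both lists overlapped between the cohorts. They were 15186 to 17071 against 14577 to 17496 TPM (fatty acid) and 8584 to 9309 against 8030 to 9235 TPM (heat shock). Of all genes with a mean of at least 10 CPM, 56.2% were higher in the MBNL1 cohort.

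Some lists were lower in the MBNL1 than in the MBNL2 cohort throughout. All 39 extracellular matrix and fibrosis genes were lower, with a median of -0.38, and 8 passed the unadjusted threshold. Tgfb3, a growth factor of the TGF-beta family, had 16.4, 21.8 and 20.4 CPM against 30.7, 23.7 and 25.2 CPM. The summed level of the list was 1423, 1795 and 1809 TPM against 2529, 1926 and 1786 TPM, so that the groups overlapped and MBNL2 replicate 1 was the highest. Without MBNL1 replicate 1, 38 were lower, the median was -0.29 and 2 passed (5.13%, against 3.94% of all genes). All 24 immediate early genes were lower, with a median of -0.47, and 9 passed. Atf3, a stress-induced transcription factor, had 2.56, 3.43 and 3.13 CPM against 19.3, 3.98 and 4.75 CPM, and the summed level of the list was 169, 179 and 229 TPM against 338, 248 and 239 TPM. All 24 were still lower without MBNL1 replicate 1, with a median of -0.39, and 3 passed (12.5%, against 3.94% of all genes). Relative to +dox, the median of the matrix list was 0.11 in the MBNL1 and 0.51 in the MBNL2 cohort. For the immediate early list these medians were -0.10 and 0.32. Both cohorts were set against the same +dox libraries, which summed to 1279 to 1618 TPM (matrix) and 160 to 257 TPM (immediate early).

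Of the 15 atrial markers, 11 were lower in the MBNL1 cohort and 7 passed the unadjusted threshold. Myl4, the atrial essential myosin light chain, had 11.2, 17.97 and 29.7 CPM against 107, 13.8 and 106 CPM, so that MBNL2 replicates 1 and 3 were high and replicate 2 lay within the range of the MBNL1 libraries. Sln, the atrial regulator of the calcium pump, had the same pattern, with 1.95, 3.95 and 6.74 CPM against 21.7, 3.13 and 23.8 CPM. Of 12 ventricular markers, 5 were higher and 7 lower, with a median of -0.06. Their summed level did not overlap, at 26469, 26032 and 26629 TPM against 23566, 25657 and 25083 TPM. The +dox libraries summed to 25944 to 29531 TPM. Only 1 atrial marker passed without MBNL1 replicate 1. Relative to the same +dox libraries, the median of the atrial markers was -0.09 in the MBNL1 and 0.59 in the MBNL2 cohort.

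**Figure D5:**
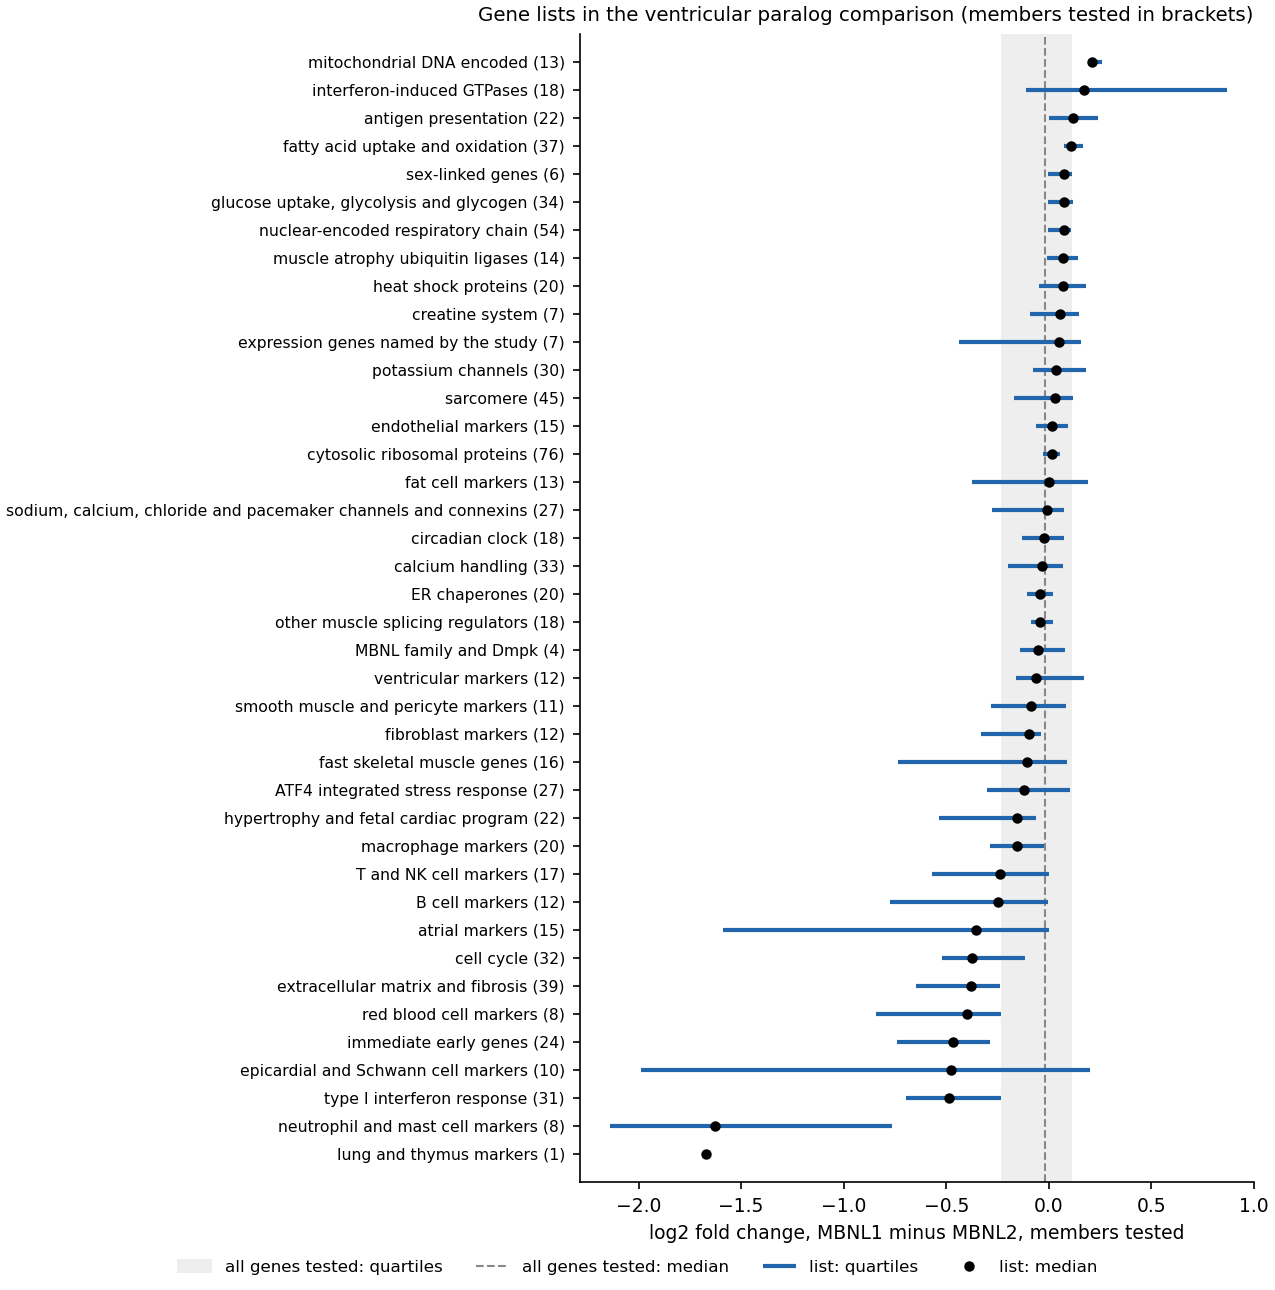
Median (point) and quartiles (line) of the log2 fold change of the MBNL1 minus the MBNL2 cohort over the tested members of each gene list, with the quartiles and median of all genes tested as grey band and dashed line. The medians of the mitochondrial, matrix and immediate early lists were 0.21, -0.38 and -0.47, against -0.02 for all genes.

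Immune lists differed widely between the libraries of a cohort. Of 31 genes of the type I interferon response, 29 were lower in the MBNL1 cohort, with a median of -0.49, and 4 passed the unadjusted threshold (2 without MBNL1 replicate 1). Irf7, a transcription factor of that response, had 5.17, 6.83 and 8.78 CPM against 21.2, 19.5 and 4.05 CPM. MBNL2 replicate 3 was thus the lowest of the 6. Relative to the same +dox libraries, the median of the 31 genes was -0.16 in the MBNL1 and 0.34 in the MBNL2 cohort. The 18 interferon-induced GTPases summed to 91.8, 70.2 and 792 TPM against 147, 153 and 223 TPM, and the 22 antigen presentation genes to 672, 560 and 2282 TPM against 961, 979 and 1543 TPM. In both, MBNL1 replicate 3 was above the other 5 libraries and no member passed the unadjusted threshold. Of the GTPases 9 were higher and 9 lower, and 15 were higher without MBNL1 replicate 1. Of 8 neutrophil and mast cell markers 7 were lower, with a median of -1.63, and 3 passed. Their summed level was low and did not overlap, at 0.15, 1.54 and 2.29 TPM against 7.38, 5.48 and 3.30 TPM, and without MBNL1 replicate 1 the median was -1.06 and none passed. Of 20 macrophage markers 15 were lower, with a median of -0.16, and none passed. Without MBNL1 replicate 1, 11 of them were higher and the median was 0.02, so the direction of this list rested on that library.

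Among markers of other cells, the 15 endothelial markers had a median of 0.02, the 12 fibroblast markers -0.10 and the 11 smooth muscle and pericyte markers -0.09. The 8 red blood cell markers were all lower, with summed levels of 1183, 626 and 1349 TPM against 1636, 1909 and 381 TPM, and none passed the unadjusted threshold. Of 32 cell cycle genes 27 were lower, with a median of -0.38, and none passed. Of 27 genes of the ATF4 stress response 16 were lower, with 3 passing in each direction. Without MBNL1 replicate 1, 1 of the 27 passed (3.70%, against 3.94% of all genes). Of 20 chaperones of the endoplasmic reticulum 14 were lower and 6 higher, with a median of -0.04. Manf, the paralog of Cdnf, had 20.0, 21.9 and 22.9 CPM against 26.3, 24.3 and 27.3 CPM, a log2 fold change of -0.27 (edgeR adjusted p = 0.326), opposite in sign to that of Cdnf.

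The contrast was also set beside the same contrast in the atria, which the study took from the same mice. The labels do not say which atrial library belongs to which ventricular one, so the test of the difference treats the tissues as independent, and the atrial contrast is not a separate set of animals. In the atria 1 gene (0.0052%) was called and 1109 (5.77%) passed the unadjusted threshold. That gene was Cdnf, with 12.8, 10.7 and 15.9 CPM in the MBNL1 atria and 4.77, 4.06 and 4.93 CPM in the MBNL2 atria, a log2 fold change of 1.52 (SE 0.221, edgeR adjusted p = 0.00443). The difference of its contrast between ventricle and atria was 0.17 (unadjusted p = 0.583 in edgeR's quasi-likelihood test). Kbtbd12 had 23.6 to 26.2 CPM against 16.5 to 17.1 CPM in the atria, a log2 fold change of 0.59 (edgeR adjusted p = 0.06). Adh6b was far higher in the atria than in the ventricle and less different between the cohorts there, with 4.16, 5.66 and 9.67 CPM against 4.38, 3.28 and 4.94 CPM.

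No gene passed the test of the difference between the tissues with edgeR (0%), where 1005 genes (5.23%) had an unadjusted p below 0.05, and with limma voom the numbers were 0 and 834. The smallest p-values belonged to Ccdc96, Adh6b and H13. Ccdc96, which encodes a coiled-coil protein, had 1.34, 0.90 and 1.07 CPM against 0.57, 0.46 and 0.29 CPM in the ventricle, and its log2 fold change was 1.32 there and -0.63 in the atria. H13, which encodes signal peptide peptidase, had 28.6, 29.5 and 31.0 CPM against 33.3, 32.3 and 34.5 CPM in the ventricle, and 38.8 to 41.0 CPM against 34.9 to 35.96 CPM in the atria. Both had groups that did not overlap in the ventricle, in the direction opposite to the atria, and neither difference passed the adjusted threshold (edgeR adjusted p = 0.854 for Ccdc96).

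Few genes were also called between the single vectors and the vectors together. The MBNL1+MBNL2 cohort had 0 called genes against the MBNL1 cohort with edgeR, where 1692 genes had an unadjusted p below 0.05, and 5 (0.026%) against the MBNL2 cohort. These 5 were Cdnf and Kbtbd12, higher with both vectors, and Kcna4, Celsr1 and Cd209a, lower with both. Celsr1 encodes a planar cell polarity cadherin and differed by -0.68, and Cd209a encodes a lectin of dendritic cells and macrophages and differed by -2.07. The MBNL2 libraries enter both this comparison and that of the single vectors. All MBNL1+MBNL2 libraries were male and of the higher series of library numbers, so that here sex and series differ between the groups.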

How the data were processed

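The authors extracted RNA from left ventricle and atria, made stranded mRNA libraries from 250 ng of RNA, sequenced paired 150-base reads, aligned them to mm10 with STAR 2.7.10b and quantified GENCODE M25 genes with RSEM 1.3.1. Deposited were the expected counts of RSEM, which are estimated counts per gene symbol without normalization, and RSEM's TPM, which the authors deposited as length-scaled values within a library. The strand setting of RSEM and the handling of shared symbols are not given in the sources used here, so reads of overlapping genes may not be separable.

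Expected counts of all 36 libraries were rounded and fitted with edgeR 4.0.16 (R 4.3.3, limma 3.58.1) as 12 groups of tissue and cohort, with filterByExpr, TMM normalization and the robust quasi-likelihood test. All adjusted p-values are Benjamini-Hochberg values over the genes of 1 comparison, and a call needed an adjusted p under 0.05 with a change of 1.5-fold or more. Levels are TMM-normalized CPM. List sums are of TPM. The steps were tested on counts simulated from the fitted means and spread, with all libraries drawn as independent. Since the simulation assumes the shared spread and the independence of tissues, it cannot test either. Depth per library was 69.0 to 76.3 M, and the intervals of count ratios cover counting error only.

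Alternatives were other sets of libraries, DESeq2 1.42.0, limma voom, other normalizations and filters, limma on log2(TPM + 1) and log2(TPM + 0.1), a term for the series of library numbers, a replicate block and leaving out each library. The 40 gene lists, the members and the tests were chosen with earlier results of these data known. Genes are named by a rule: the MBNL genes and Dmpk, called genes, the 10 smallest p-values per direction, genes the study followed, up to 4 members of each list, the 6 smallest p-values per direction among repeat-responsive genes and the 5 smallest for the difference between tissues. The text gives the best measured of these. Celsr1 and Cd209a were named after their values were seen. Positions were looked up by symbol in GENCODE M21 (GRCm38), where 96.4% of the symbols were found. Splicing and the human cDNAs were not analysed here.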

Additional observations from a re-analysis of the deposited data

How the results depend on the processing

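Of the 3 called genes, Cdnf passed in 17 of 19 alternatives (log2 fold change 1.35 to 1.95, adjusted p 2.30e-05 to 0.536), and it was not called in the fits of the 18 ventricular or of the 6 compared libraries. Kbtbd12 lost its call in 13 of 19 (adjusted p 0.0115 to 0.914) and Adh6b in 12 of 18 (0.00117 to 0.966). The number called was 0 with the ventricular libraries alone (1155 at an unadjusted p below 0.05) and 0 with the 6 libraries alone (694), 1 with limma voom, 5 without a filter, 1 with at least 10 CPM in 3 libraries, 5 on log2(TPM + 0.1) and 9 with a term for the series of library numbers. Leaving out each library in turn gave 1 to 53, the 53 without MBNL1 replicate 3, 7 without MBNL1 replicate 2, 1 without MBNL1 replicate 1, 1 without MBNL2 replicate 3 and 2 and 4 without MBNL2 replicates 1 and 2. On log2(TPM + 1), 260 genes were higher and 2090 lower at an unadjusted p below 0.05, and on log2(TPM + 0.1) 230 and 2496, against 925 and 1079 on counts. Mbnl2 was called on log2(TPM + 1) and log2(TPM + 0.1), at -0.71 in both, and Mbnl1 was called in none of 19 (0.31 to 0.47). The share of repeat-responsive genes with an MBNL1 minus MBNL2 difference in the direction of -dox was 59.2% with no minimum fold change. It was 67.7% among genes of at least 10 CPM, an alternative chosen after seeing the data. When each library was left out it was 57.7% to 66.9%. The difference between tissues gave 0 called genes in every alternative run with edgeR or limma voom. None of the called and most nearly called genes changed its direction, while Dmpk and the macrophage list did without MBNL1 replicate 1. For the calls that were lost or gained the cause was not tested. Libraries with the same replicate number correlated at -0.02, 0.08 and 0.13 in their deviations from the cohort means over all genes, and at 0.19, 0.35 and 0.63 over genes of at least 10 CPM, where replicates 1 and 2 also correlated across numbers (0.22 and 0.30). The numbers were not taken as pairs. With a replicate block the 6 libraries gave 1 called gene (Cdnf), 15 ventricular libraries gave 2 (Cdnf and Kbtbd12), and the difference between tissues gave 0.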
